A study of Homo sapiens with 6 samples.

Results

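HSPA8 and 9 further genes of the HSP70 family (HSPA1A, HSPA1B, HSPA2, HSPA4, HSPA4L, HSPA9, HSPA13, HSPA14 and HSPH1) were examined in LM3 cells, an established human hepatocellular carcinoma (HCC) line, with or without stable knockdown of ZNF706, a zinc finger protein gene. The 10 genes were taken by symbol from a table of 33007 genes, in which 11 entries carry one of these symbols. HSPA14 has 2 entries, and the entry with the larger sum of counts over the samples was used, at 14448 against 14434 counts. HSPA8 was chosen on its lower level in this comparison and the other members with results of the same comparison in view. The differences of all 10 between the groups are therefore given as descriptions. The number of members called is printed only beside the share or number of all genes called. RNA-seq was done on 3 samples of LM3 cells carrying the vector (control) and 3 samples of LM3 cells with a short hairpin RNA against ZNF706, in both cases lines made with a lentivirus and selected with puromycin. The labels call the controls wild type, do not say which hairpin was sequenced, and do not say whether the samples of a group came from separate cultures, so a p-value here measures the spread between these samples, which may be technical.

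HSP70 proteins are ATP-driven chaperones that bind short hydrophobic stretches of unfolded proteins. J-domain proteins (the DNAJ genes) bring clients and trigger ATP hydrolysis, which closes HSP70 on the client, and nucleotide exchange factors such as the BAG proteins and the HSP110 group open it again. HSPA8 (HSC70) is the constitutive cytosolic member and also uncoats clathrin vesicles and serves chaperone-mediated autophagy, whereas HSPA1A and HSPA1B encode the stress-inducible form, whose transcription is driven by the heat shock factor HSF1 through heat shock elements in their promoters. Tumour cells often hold high levels of these chaperones.

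Total counts were 62684076, 64713764 and 63054445 for control replicates 1, 2 and 3 and 68548419, 65861994 and 69057423 for ZNF706 knockdown replicates 1, 2 and 3. Every knockdown library was therefore deeper than every control library, and depth cannot be told apart from the group. ZNF706 itself (ENSG00000120963) was counted 3211, 3504 and 3357 times in control libraries and 2350, 2068 and 2298 times in knockdown libraries, without overlap. Its level was 53.9 ± 1.76 CPM (SD, n = 3) in control and 32.4 ± 1.39 CPM (SD, n = 3) in knockdown cells, where CPM is counts scaled to library size with TMM factors, and edgeR's quasi-likelihood test gave a log2 fold change of -0.73 ± 0.05 (SE; adjusted p = 3.7e-05). ZNF706 transcript was thus reduced by 39.9% and was still present in every knockdown sample.

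Markers of the labelled tissue were sparse in these cells. The 9 hepatocyte markers summed to 3.63, 8.09 and 9.62 FPKM (fragments scaled to gene length and library size) in the control samples and to 3.99, 4.14 and 2.73 FPKM in the knockdown samples, with ALB the most abundant and HNF4A at a mean of 0.133 FPKM in control cells. The epithelial keratins KRT8 and KRT18 were at 193 and 271 FPKM in control cells. The 4 epithelial markers summed to 464 FPKM in control and 462 FPKM in knockdown cells, nearly all of it these 2 keratins. The other epithelial markers, EPCAM and CDH1, were at 0.127 and 0.293 FPKM in control and 0.23 and 0.457 FPKM in knockdown cells. Of the markers of other cell types, the 5 fibroblast genes summed to 7.89 FPKM in control and 8.76 FPKM in knockdown cells, nearly all of it COL1A1, and the 3 endothelial genes to 1.92 and 1.58 FPKM. The immune list was at 10.6 FPKM in control and 17.1 FPKM in knockdown cells, nearly all of it CD68, which encodes a lysosomal membrane protein, while the leukocyte gene PTPRC was at 0.01 FPKM or less in every sample.

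The heat shock elements of the promoters are shown first because, by exact match, they set HSPA8 apart in sequence from the other members with a window. An element is built of inverted GAA and TTC units, and the 250 bases before each RefSeq gene start (GRCh38.p14) were searched on both strands for a pair (GAANNTTC or TTCNNGAA) and for 3 units in a row (GAANNTTCNNGAA or TTCNNGAANNTTC), each of which contains overlapping pairs. Only exact units were counted, so elements with a changed base in a unit were missed. A gene with a single pair or no match may thus hold a longer imperfect element, and the strength of elements was not compared. A window was found for 9 of the 10 members and not for HSPA14. HSPA8 held 2 runs of 3 units, starting 230 and 55 bases before the start. HSPA1A, HSPA1B and HSPA4L (in 1 of its 3 windows) held a single pair, and HSPA2, HSPA4, HSPA9, HSPA13 and HSPH1 held none. Among all 35114 promoter windows, 11.6% held a pair and 0.441% held 3 units in a row. The sites of the members are printed 5′ to 3′ on the strand of the gene, with the GAA and TTC units and the bases between them in capitals.
HSPA8, 230 bases before the start (chr11:123062346-123062374, minus strand): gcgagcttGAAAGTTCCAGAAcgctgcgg
HSPA8, 55 bases before the start (chr11:123062171-123062199, minus strand): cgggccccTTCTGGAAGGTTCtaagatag
HSPA1A, 106 bases before the start (chr6:31815426-31815455, plus strand): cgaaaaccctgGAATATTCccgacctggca
HSPA1B, 105 bases before the start (chr6:31827622-31827651, plus strand): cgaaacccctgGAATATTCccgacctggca
HSPA4L, 170 bases before the start (chr4:127782141-127782170, plus strand): tttccagatctTTCTCGAAcccgcagcttc

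The HSPA1A and HSPA1B sites carry the same letters in capitals. The HSPA1A site also lies before HSPA1L, the neighbouring HSP70 gene on the opposite strand. The table's span of HSPA8 begins further upstream than the RefSeq start, so both HSPA8 sites lie inside the gene as counted. A match is a description of letters, and binding of any factor was not measured.

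In level per length the family spanned from HSPA8, the highest, to HSPA2, the lowest. In control cells HSPA8 was at 652 ± 25.2 FPKM (SD, n = 3), followed by the stress-inducible HSPA1A at 253 ± 19.3 FPKM and HSPA1B at 222 ± 14.6 FPKM. HSPA9, the mitochondrial member, was at 132 ± 1.71 FPKM. The HSP110 genes HSPA4 and HSPH1 were at 54.2 ± 2.50 and 24.0 ± 1.14 FPKM. HSPA13, a microsomal member, was at 12.9 ± 0.375 FPKM, HSPA4L, the third HSP110 gene, at 10.5 ± 0.272 FPKM, and HSPA14, which works with the J-protein DNAJC2 at the ribosome, at 7.06 ± 0.032 FPKM. HSPA2, known best from the testis, was at 0.82 ± 0.10 FPKM. The other entry of HSPA14, described with that gene, was at 12.1 ± 0.436 FPKM (SD, n = 3), which would place it above HSPA4L and within the range of HSPA13 in part, so the rank of HSPA14 depends on the entry. With the entry used here, only the neighbours HSPA1A and HSPA1B had overlapping ranges in the control samples, and every other step of this order exceeded the range of the samples. The 10 genes summed to 1302, 1377 and 1426 FPKM in the control samples and to 904, 980 and 1081 FPKM in the knockdown samples. HSPA8 made up 47.7% ± 0.537 of that sum in control cells and 43.5% ± 1.34 in knockdown cells (SD, n = 3).

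**Figure D1:**
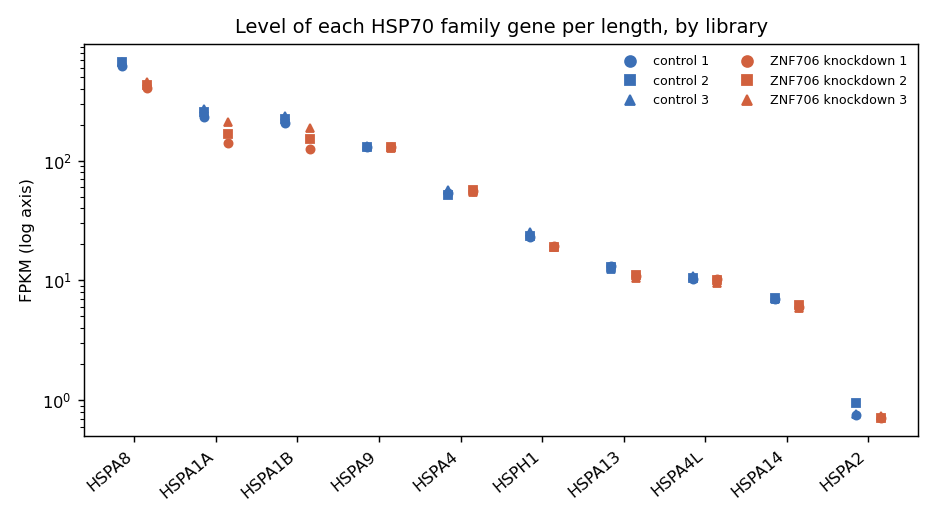
Level of the 10 HSP70 family genes in FPKM on a log axis, 1 point per library (blue, control; orange, ZNF706 knockdown; 3 libraries each). HSPA8 was the highest in every library and HSPA2 the lowest.

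HSPA8 (ENSG00000109971, GRCh38 chromosome 11, 123057489 to 123063230, minus strand) had 215043, 236526 and 233637 counts in control cells and 154443, 155340 and 173635 in ZNF706 knockdown cells. The lowest control library stood well above the highest knockdown library, although the knockdown libraries were deeper. In CPM the values were 3474, 3721 and 3806 in control cells and 2202, 2316 and 2481 in knockdown cells. The fitted log2 fold change was -0.65 (standard error 0.046, 95% interval -0.76 to -0.55), or a change of -36.4% (95% interval -40.8 to -31.7%). HSPA8 took 0.343, 0.366 and 0.371% of all counts in the control libraries and 0.225, 0.236 and 0.251% in the knockdown libraries. In bulk RNA, fewer cells with a transcript and less of it per cell cannot be told apart.

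Few reads were counted under copies of HSPA8, and reads of copies that were counted under HSPA8 itself were not measured. Its 9 processed copies in the table held 55, 83 and 99 counts in all in control and 58, 71 and 62 in knockdown libraries, with HSPA8P5 the most abundant at up to 33. No stretch of 100 bases of an HSPA8 transcript in GENCODE release 29 occurred in another gene. A gene on the opposite strand that overlaps an exon of HSPA8 (ENSG00000288061) had 9, 16 and 22 counts in control and 0, 5 and 6 in knockdown samples. Whether strand was used in counting is not given in the sources used here, so reads of the 2 genes may not have been separated, but these counts are small beside those of HSPA8.

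**Figure D2:**
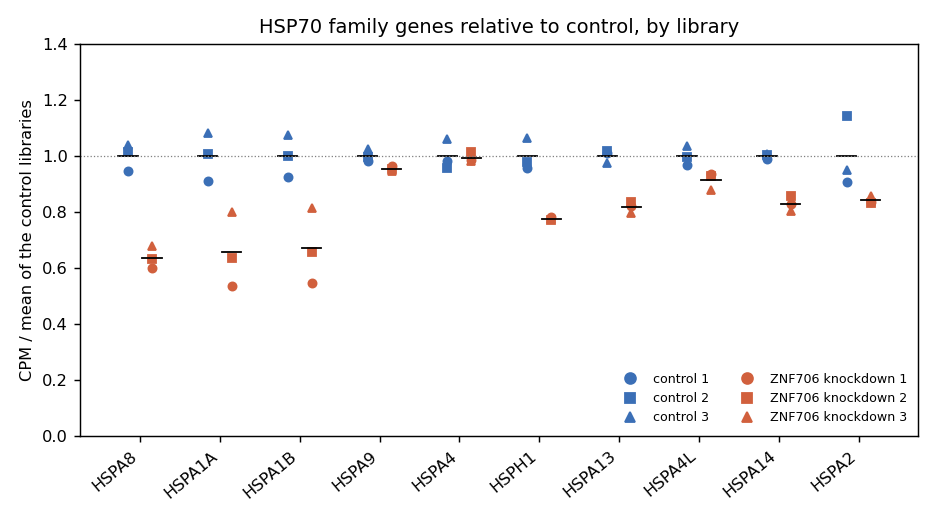
CPM of each HSP70 family gene divided by its mean over the control libraries, 1 point per library and a bar at each group's mean (blue, control; orange, ZNF706 knockdown). The 3 knockdown libraries of HSPA8 lay at 0.601 to 0.677 of the control mean, those of HSPA1A were spread from 0.534 to 0.801, and those of HSPA4 overlapped the control libraries.

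HSPA1A (ENSG00000204389, chromosome 6, 31815543 to 31817946, plus strand) and HSPA1B (ENSG00000204388, chromosome 6, 31827738 to 31830254, plus strand) are neighbours that encode nearly the same protein. HSPA1A had 643, 711 and 763 CPM in control cells and 377, 449 and 565 CPM in knockdown cells. HSPA1B had 600, 648 and 697 CPM in control cells and 354, 426 and 528 CPM in knockdown cells. In both genes the groups did not overlap, ZNF706 knockdown replicate 1 was the lowest library and ZNF706 knockdown replicate 3 the highest of its group. The log2 fold change was -0.61 for HSPA1A (standard error 0.12, 95% interval -0.88 to -0.33) and -0.57 for HSPA1B (standard error 0.12, 95% interval -0.84 to -0.31). These intervals are wider than that of HSPA8, and the knockdown libraries differed more, with an SD of 95.1 CPM for HSPA1A against 60.0 CPM in control.

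The 2 genes cannot be read as independent. Of the 100-base stretches of their transcripts, 67.3% of those of HSPA1A and 72.7% of those of HSPA1B also occurred in the other gene, so the authors' counting could have divided reads between them. The ratio of HSPA1A to HSPA1B counts was nearly constant, from 1.05 to 1.10 over the 6 libraries. With their counts summed, the pair had 1354 ± 108 CPM in control and 900 ± 183 CPM in knockdown cells (SD, n = 3), and the log2 fold change was -0.59 (standard error 0.12, 95% interval -0.86 to -0.32).

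The 3 genes of the HSP110 group, which act as nucleotide exchange factors of HSP70, differed among themselves. HSPH1 (ENSG00000120694, chromosome 13, 31134973 to 31162388, minus strand), itself a heat-inducible gene, had 223, 228 and 248 CPM in control cells and 182, 180 and 180 CPM in knockdown cells. Its knockdown libraries were closely alike and all below the control libraries, with a log2 fold change of -0.37 (standard error 0.042, 95% interval -0.46 to -0.27). HSPA4 (ENSG00000170606, chromosome 5, 133052013 to 133106449, plus strand) had 315, 307 and 340 CPM in control cells and 316, 325 and 315 CPM in knockdown cells. Here the groups overlapped, and the 95% interval of the log2 fold change, -0.10 to 0.08 around -0.01, covered 0, with a sign that turned under other scalings.

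HSPA4L (ENSG00000164070, chromosome 4, 127781821 to 127840733, plus strand) had 135, 139 and 145 CPM in control cells and 130, 130 and 122 CPM in knockdown cells. The groups did not overlap, but the gap between them was small, and the log2 fold change of -0.13 (standard error 0.041, 95% interval -0.22 to -0.04) became -0.08 with library size alone as scaling and -0.04 with the trend on GC content removed. A gene on the opposite strand within HSPA4L (ENSG00000244021) had 84 to 117 counts per library, against at least 8360 for HSPA4L. Another (ENSG00000261668), with 0 to 17 counts, shares 4.55% of the 100-base stretches of HSPA4L.

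HSPA9 (mortalin, ENSG00000113013, chromosome 5, 138553756 to 138575416, minus strand), which pulls proteins into the mitochondrial matrix and folds them there, had 1192, 1209 and 1243 CPM in control cells and 1170, 1159 and 1149 CPM in knockdown cells. The groups did not overlap, yet the log2 fold change was only -0.07 (standard error 0.027, 95% interval -0.13 to -0.01). Its level in FPKM was 132 ± 1.71 in control and 130 ± 1.41 in knockdown cells (SD, n = 3), where the ranges did overlap. The value was -0.0134 with library size alone as scaling, -0.0188 with limma on FPKM and -0.0311 with the trend on GC content removed. With DESeq2 it was -0.0695, and DESeq2 called HSPA9 lower where edgeR did not. The difference in CPM came to -4.57% (95% interval -8.48 to -0.48%). The processed copy HSPA9P1 had 35 to 79 counts per library, against at least 73754 for HSPA9.

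HSPA13 (ENSG00000155304, chromosome 21, 14371115 to 14383484, minus strand) had 62.5, 62.9 and 60.3 CPM in control cells and 50.7, 51.6 and 49.2 CPM in knockdown cells. The control libraries all lay above the knockdown libraries, and the log2 fold change was -0.29 (standard error 0.039, 95% interval -0.38 to -0.21). It became -0.17 with the trend on GC content removed. HSPA2 (ENSG00000126803, chromosome 14, 64535905 to 64546173, plus strand) had 310, 401 and 322 counts in control and 323, 308 and 331 counts in knockdown samples, or 5.52 ± 0.692 CPM and 4.64 ± 0.076 CPM (SD, n = 3). At this depth the interval of its log2 fold change of -0.25 (standard error 0.13) ran from -0.54 to 0.04. Without control replicate 2, the highest library, the value was -0.14.

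HSPA14 shows a difference that depends on which of its entries is read. The entry used here (ENSG00000284024, chromosome 10, 14838166 to 14847018, plus strand) spans fewer bases and had 39.8, 40.5 and 40.6 CPM in control cells and 33.3, 34.5 and 32.4 CPM in knockdown cells. Its groups did not overlap, with a log2 fold change of -0.27 (standard error 0.049, 95% interval -0.38 to -0.16). The other entry (ENSG00000187522, chromosome 10, 14838306 to 14871741, plus strand) spans more and had 35.1, 36.2 and 34.0 CPM in control cells and 35.0, 38.8 and 40.3 CPM in knockdown cells, with overlapping groups and a log2 fold change of 0.12 (standard error 0.062, 95% interval -0.02 to 0.26). The entries overlap on the same strand, and 7.21% and 14.2% of their 100-base stretches occurred in the other entry. Summed, they had 75.4 ± 1.11 CPM in control and 71.5 ± 2.74 CPM in knockdown cells (SD, n = 3), and the log2 fold change was -0.08 (standard error 0.039, 95% interval -0.16 to 0.01). All 3 knockdown sums, at 68.3, 73.3 and 72.7 CPM, lay below the control sums of 74.9, 76.6 and 74.6 CPM, but the difference was smaller than in the entry used here, which was selected by a margin of 14 counts.

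**Figure D3:**
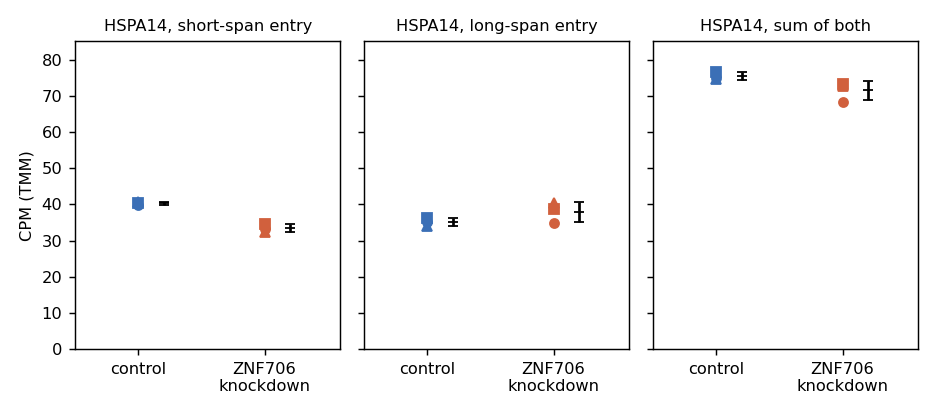
CPM of the HSPA14 entry that spans fewer bases (left), of the entry that spans more (middle) and of their sum (right), 1 point per library, with the mean and SD (n = 3) beside the points. The left entry was lower in all 3 knockdown libraries, the middle entry overlapped between the groups, and the sum was lower in all 3 knockdown libraries by less, at a mean of 75.4 CPM in control and 71.5 CPM in knockdown cells.

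Of the 10 members, all passed the filter on low counts and 7 had an adjusted p below 0.05 by edgeR, each lower in knockdown cells. These include HSPA4L, which was below the threshold under only 4 of 15 alternatives, and the HSPA14 entry used here, while the other entry and the sum of both were not called. DESeq2 called 8 members, HSPA9 among them, and 4925 genes in all. Over all 18390 genes tested, 22.8% were called, 12.4% lower (2286 genes) and 10.4% higher (1906 genes). Without ZNF706 knockdown replicate 2, 2648 genes were called, 1500 lower and 1148 higher. With library size alone as scaling, 1518 genes were lower and 2742 higher, and the median log2 fold change of all genes moved from 0.01 to 0.06. The groups did not overlap for 9 of the 10 members, against 39.4% of all genes tested. The median log2 fold change was -0.28 over the members and 0.01 over all genes tested. Since the members were chosen with this comparison known, these counts support nothing further.

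**Figure D4:**
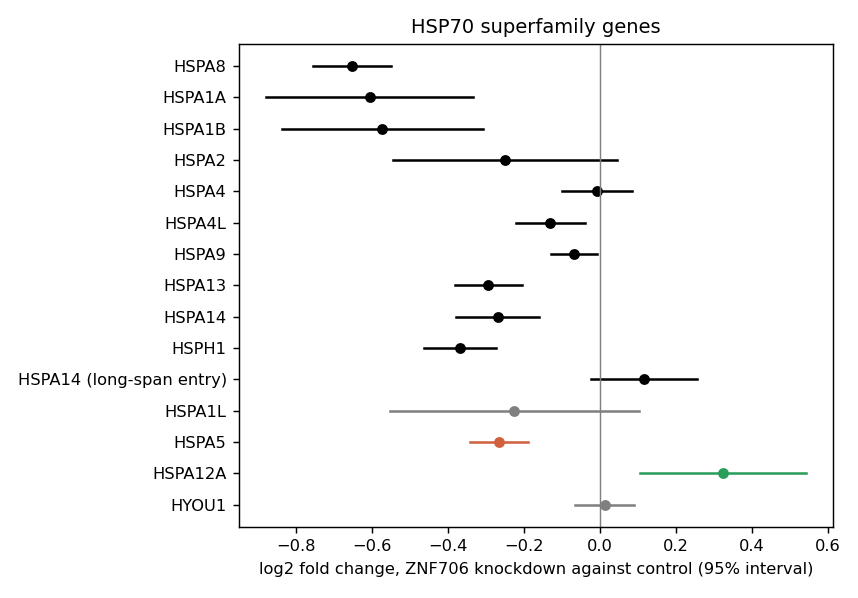
Fitted log2 fold change (point) and 95% interval (line) for the 10 members and the HSPA14 entry that spans more bases (black, no test), and for the other HSP70 superfamily genes with at least 5 CPM in control cells (orange, lower; green, higher; grey, not called). HSPA8, HSPA1A and HSPA1B lie between -0.65 and -0.57, while HSPA4 and HYOU1 lie near 0.

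Of the HSP70 superfamily genes outside the members, 6 of 7 could be tested, and 1 fell, 1 rose and 4 were not called. Called genes made up 33.3% of those tested, against 22.8% of all genes tested (12.4% lower and 10.4% higher). HSPA5 (BiP), the HSP70 of the endoplasmic reticulum, had 2408, 2611 and 2545 CPM in control cells and 2043, 2089 and 2159 CPM in knockdown cells, below the control range in every library. This was a log2 fold change of -0.27 by edgeR (standard error 0.034, adjusted p = 0.000675). HSPA12A, a distant relative, rose from 8.32 ± 0.617 to 10.4 ± 0.314 CPM (SD, n = 3; log2 fold change 0.32 ± 0.098, SE, adjusted p = 0.0392, edgeR), a call that was lost under 6 of 14 alternative settings.

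The J-domain partners of cytosolic HSP70 had more falls than rises. Of 18 tested, 7 fell, 1 rose and 10 were not called, with a median log2 fold change of -0.11. The share called was 44.4%, against 22.8% of all genes tested (12.4% lower and 10.4% higher). DNAJB1 (HSP40), the heat-inducible partner of HSPA1A and HSPA8, had 210, 209 and 219 CPM in control cells and 139, 156 and 178 CPM in knockdown cells. As with HSPA1A, replicate 1 was the lowest and replicate 3 the highest of the knockdown libraries, and the groups did not overlap (log2 fold change -0.43 ± 0.075, SE, adjusted p = 0.00289, edgeR). DNAJB4, its close relative, fell by 0.38 on the log2 scale (standard error 0.056, adjusted p = 0.00133, edgeR), or to a log2 fold change of -0.24 with the trend on GC content removed. DNAJC9, a nuclear histone chaperone that recruits HSP70, fell by 0.33 (standard error 0.036, adjusted p = 0.000298, edgeR). DNAJA1, a general partner in folding, fell by 0.32 (standard error 0.032, adjusted p = 0.000209, edgeR). The single rise was DNAJC7, a J-protein that binds both HSP70 and HSP90, which rose by 0.11 (standard error 0.034, adjusted p = 0.0426, edgeR), and its call was lost under 8 of 15 alternatives.

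Of the 6 BAG and HSPBP1 exchange factors, 3 fell and 3 were not called. For comparison, 22.8% of all genes tested were called, 12.4% lower and 10.4% higher. BAG3, the heat-inducible factor that links HSP70 to selective autophagy, had 130, 134 and 143 CPM in control cells and 107, 111 and 113 CPM in knockdown cells (log2 fold change -0.30 ± 0.043, SE, adjusted p = 0.0011, edgeR). BAG1, which links HSP70 to the proteasome, fell by 0.22 (standard error 0.035, adjusted p = 0.00207, edgeR). BAG2, an inhibitor of the ubiquitin ligase STUB1, fell by 0.21 (standard error 0.063, adjusted p = 0.0384, edgeR), a call lost under 10 of 15 alternatives, with a log2 fold change of -0.11 once the trend on GC content was removed.

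The adaptors that dock on HSP70 by tetratricopeptide repeats went both ways, with 1 fall, 2 rises and 2 not called among 5. At 60.0%, the share called compares with 22.8% of all genes tested (12.4% lower and 10.4% higher). TOMM70, the receptor that takes preproteins from HSP70 and HSP90 to mitochondria, fell by 0.14 (standard error 0.030, adjusted p = 0.00851, edgeR). STUB1 (CHIP), the ubiquitin ligase for clients of HSP70, rose by 0.16 (standard error 0.042, adjusted p = 0.0205, edgeR), and TOMM34, a cytosolic co-chaperone, by 0.13 (standard error 0.041, adjusted p = 0.0424, edgeR). The calls were lost under 2 of 15 alternatives for TOMM70, 5 of 15 for STUB1 and 8 of 15 for TOMM34, and with the trend on GC content removed the log2 fold change was -0.09 for TOMM70 and 0.07 for STUB1.

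HSPA9 itself was not called by edgeR, and its mitochondrial partners were divided. Of 12 tested, 2 fell, 4 rose and 6 were not called, and the median log2 fold change was 0.08. Both falls were the mitochondrial exchange factors, GRPEL1 and GRPEL2, which each fell by 0.27 (standard errors 0.052 and 0.049, adjusted p = 0.00522 and 0.00373, edgeR). The rises were PAM16 (log2 fold change 0.29 ± 0.092, SE, adjusted p = 0.0476) and DNAJC19 (0.18, standard error 0.054, adjusted p = 0.0404), both of the import motor, DNAJA3 (0.14, standard error 0.037, adjusted p = 0.0207), a J-protein of the matrix, and HSPD1 (0.14, standard error 0.030, adjusted p = 0.00861), the HSP60 chaperonin, by edgeR. Over the J-domain, exchange factor, adaptor and mitochondrial lists together, each gene counted once, 13 of 41 genes fell and 7 rose, so that 48.8% were called against 22.8% of all genes tested. The split was 10 lower and 8 higher with library size alone as scaling, and 11 lower and 9 higher with limma. The falls numbered 11 to 12 when any 1 library was left out, but the rises numbered 2, 3 and 1 without control replicates 1, 2 and 3 and 8, 2 and 1 without ZNF706 knockdown replicates 1, 2 and 3. The calls were lost under 8 of 15 alternatives for PAM16, 8 of 15 for DNAJC19 and 4 of 15 for DNAJA3.

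Heat shock response genes outside the HSP70 family moved in both directions. Of 23 tested, 7 fell, 3 rose and 13 were not called, and the median log2 fold change was 0.00, close to that of all genes. The share called was 43.5%, against 22.8% of all genes tested. This list repeats genes counted in the lists above, namely DNAJB1, DNAJA1 and BAG3 (lower), HSPD1 (higher), and STIP1 and HSPE1 (not called). With library size alone as scaling, 6 fell and 6 rose, and with limma on FPKM 7 fell and 5 rose. IER5, an activator of HSF1 that is itself heat-inducible, had 44.9, 49.1 and 47.5 CPM in control cells and 31.8, 31.5 and 31.7 CPM in knockdown cells. It fell by 0.58 on the log2 scale (standard error 0.050, adjusted p = 9.84e-05, edgeR). CHORDC1 (morgana), an HSP90 co-chaperone, had 123, 127 and 133 CPM in control cells and 86.7, 86.9 and 89.6 CPM in knockdown cells. It fell by 0.54 (standard error 0.040, adjusted p = 4.71e-05, edgeR), with far less spread between knockdown libraries than HSPA1A. HSPB8, the small heat shock protein that works with BAG3, fell by 0.43 (standard error 0.086, adjusted p = 0.00606, edgeR) and shared the order of knockdown replicates 1 and 3 with HSPA1A and DNAJB1, at 24.6 and 30.8 CPM.

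HSPB1 (HSP27), another small heat shock protein, went the other way, with 160, 163 and 185 CPM in control cells and 229, 242 and 247 CPM in knockdown cells. Every knockdown library lay above every control library, and HSPB1 rose by 0.50 on the log2 scale (standard error 0.056, adjusted p = 0.000347, edgeR). SERPINH1 (HSP47), the collagen chaperone of the endoplasmic reticulum, rose by 0.34 (standard error 0.044, adjusted p = 0.00063, edgeR). The cytosolic HSP90 genes, named after their values were seen, were not called, with log2 fold changes of 0.07 for HSP90AA1 (95% interval -0.02 to 0.15) and -0.03 for HSP90AB1 (95% interval -0.09 to 0.02). Their levels in control cells were 339 FPKM for HSP90AA1 and 918 FPKM for HSP90AB1.

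**Figure D5:**
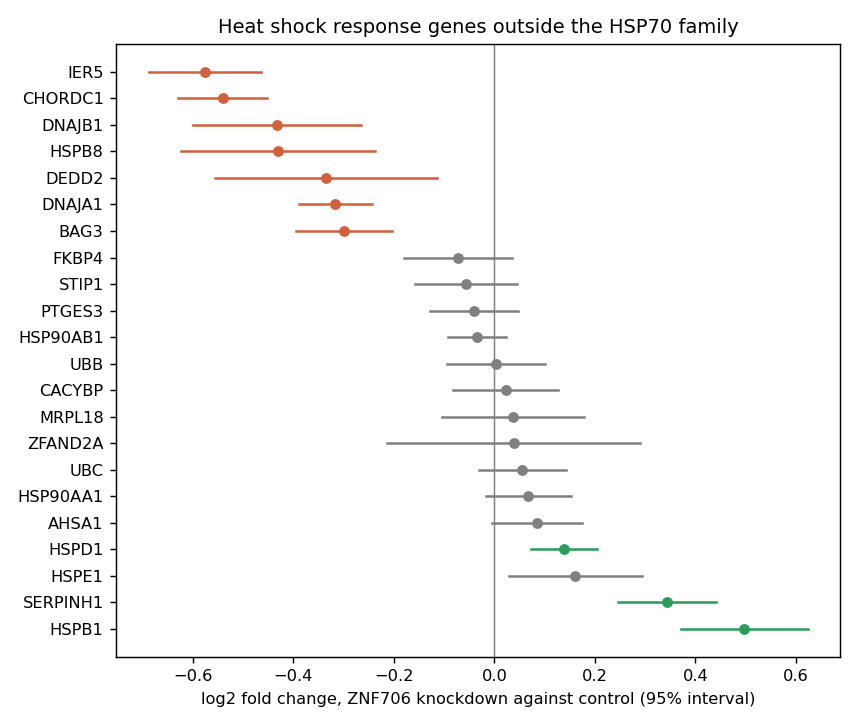
Fitted log2 fold change (point) and 95% interval (line) for the heat shock response genes outside the HSP70 family with at least 5 CPM in control cells (orange, lower; green, higher; grey, not called at an adjusted p of 0.05). IER5 and CHORDC1 lie lowest, at -0.58 and -0.54, HSPB1 highest at 0.50, and the HSP90 genes HSP90AA1 and HSP90AB1 near 0.

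The transcripts of the heat shock factors gave no call. HSF1 had 57.0 ± 3.26 CPM in control and 57.2 ± 1.902 CPM in knockdown cells (SD, n = 3), with a log2 fold change of 0.00 and a 95% interval of -0.11 to 0.12. HSF2 was at -0.14 (95% interval -0.35 to 0.07), HSF4 at 0.19 (-0.33 to 0.72) and HSBP1, which encodes a binding protein of HSF1, at -0.07 (-0.17 to 0.03). With 1 library left out, HSF2 ran from -0.22 to -0.07, HSF4 from 0.035 to 0.37 and HSBP1 from -0.11 to -0.05. By edgeR 0 of the 4 were called, 0 had an unadjusted p below 0.05 (lowest 0.13), and DESeq2 called 0. Among all genes tested, edgeR called 22.8%. HSF1 protein and its activity were not measured.

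Heat shock elements were found before some genes that fell, some that rose and some that were not called. Of the genes of all these lists with a promoter window, 24 held at least a pair, of which 12 were called lower, 3 higher and 9 not called, and 48 held no pair, of which 11 were called lower, 6 higher and 31 not called. These counts include the members and lists chosen with earlier results known, and no test was made of them. Among all 18390 genes tested, 12.4% were called lower and 10.4% higher. Across the table of promoters, 14.0% of 27303 genes held a pair and 0.557% held 3 units in a row in at least 1 window. The 8 list genes with 3 units in a row were HSPA8 and CHORDC1, which were lower, HSPD1 and SERPINH1, which were higher, and HSP90AA1, HSP90AB1, DNAJB6 and HSPA6, which were not called. The runs of CHORDC1, HSPD1, SERPINH1 and HSP90AB1 are printed as above, to set beside those of HSPA8. Those of HSPD1 and HSP90AB1 lie before alternative RefSeq starts, in their windows 2 and 3, and HSP90AB1, like HSPA8, held 2 runs.
CHORDC1, 60 bases before the start (chr11:90223084-90223112, minus strand): ccgGAAAATTCGCGAAGGTTCCTGAAacg
HSPD1, 245 bases before the start (chr2:197500062-197500090, minus strand): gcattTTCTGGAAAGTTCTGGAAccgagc
SERPINH1, 76 bases before the start (chr11:75562169-75562197, plus strand): ttccaactTTCCAGAAGTTTCtcgggacg
HSP90AB1, 165 bases before the start (chr6:44247770-44247798, plus strand): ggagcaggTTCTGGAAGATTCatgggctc
HSP90AB1, 112 bases before the start (chr6:44247823-44247851, plus strand): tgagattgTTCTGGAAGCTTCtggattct

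Of 4 genes of the routes in which HSPA8 is known to serve, 1 fell and 3 were not called by edgeR. This share of 25.0% was close to the 22.8% called among all genes tested. LAMP2, whose LAMP2A form is the lysosomal receptor for clients that HSPA8 delivers, had 157, 154 and 158 CPM in control cells and 142, 135 and 137 CPM in knockdown cells (log2 fold change -0.18 ± 0.035, SE, adjusted p = 0.00515, edgeR). With the trend on GC content removed, the value for LAMP2 was -0.08 and the call was lost. The clathrin chains, whose coats HSPA8 takes apart, had log2 fold changes of -0.09 for CLTA, -0.07 for CLTB and -0.09 for CLTC. These became -0.04, -0.02 and -0.04 with library size alone as scaling. CLTC was called lower by DESeq2 (adjusted p = 0.0149) and by edgeR without ZNF706 knockdown replicate 1, and CLTA by edgeR without ZNF706 knockdown replicate 3. Of the ribosome-associated chaperones, DNAJC2, the J-protein partner of HSPA14, fell by 0.22 (standard error 0.044, adjusted p = 0.00604, edgeR), while NACA and BTF3, the subunits of the nascent polypeptide-associated complex, were not called at -0.01 and 0.04.

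HSPA8 also hosts small nucleolar RNAs in its introns, and SNORD14E was the only 1 of 5 such genes of HSPA8 and HSPA9 with enough counts to test. Its counts were 15, 24 and 14 in control cells and 44, 46 and 44 in knockdown cells, so it was higher in every knockdown library while its host was lower. At a log2 fold change of 1.19 ± 0.41 (SE), the adjusted p of 0.0643 from edgeR missed the threshold. It was called under 2 of 14 alternatives. Intronic reads of HSPA8 and the mature snoRNA cannot be told apart in these counts.

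The genes whose levels followed HSPA8 most closely were sought among 9473 genes with a mean of at least 10 CPM, by the root mean square difference of centred log2 CPM over the 6 samples. The closest were MT-TA, MT-TN and MT-TC, which are transfer RNA genes of the mitochondrial genome, at 0.028, 0.035 and 0.036, then SPTLC2, a subunit of the enzyme that starts sphingolipid synthesis, at 0.038, and CASP4, an inflammatory caspase, at 0.044. MT-TA had 65.4, 66.9 and 69.3 CPM in control cells and 39.6, 43.7 and 45.6 CPM in knockdown cells, which has the same order of libraries as HSPA8. With 6 samples in 2 groups, such likeness rests mainly on the size of the group difference.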

How the data were processed

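RNA of LM3 cells (TRIzol, RIN above 7.0) was sequenced on an Illumina NovaSeq and mapped with HISAT2 by the authors, whose submission names cutadapt 1.9, FastQC and GRCh38. The counting program, its strand setting and the annotation release are not given in the sources used here. The authors deposited raw counts per gene, without normalization, and FPKM values, scaled by them to gene length and library size. Their coordinates overlapped those of GENCODE release 29 for 99.77% of 32092 common genes.

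The quasi-likelihood test of edgeR 4.0.16 (R 4.3.3) was run on the counts after filterByExpr and TMM scaling. P-values of the 18390 genes kept were adjusted by Benjamini-Hochberg, with a threshold of 0.05. The standard error is the absolute log2 fold change over the square root of F, and the 95% interval uses the fit's degrees of freedom. The fit was tested on simulated data. No library was a repeat of another, since the chi-square statistic of a pair, per gene with a mean count of at least 50, ran from 12.6 to 15.0 within control, 12.6 to 22.0 within knockdown and 45.7 to 53.7 across groups. With 3 samples a group, an exact permutation test of a single value could not pass the threshold.

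The members and lists were chosen with earlier results of these data known. Named were the members, ZNF706, up to 4 called genes per list and direction with the largest log2 fold change, lists of 4 or fewer tested genes in full, the 5 genes most like HSPA8, and genes overlapping a member or its copies with at least 10 counts, of which those that bear on a member are given. Genes named for their heat shock elements were chosen after their values were seen. Alternatives were DESeq2 1.42.0 (Wald test and size factors), library size alone, other filters and limma 3.58.1 on log2(FPKM + 0.1). Further ones were the replicate number as a block, each library left out, and the study's thresholds applied to edgeR's p-values. Removal of GC and length trends and summed entries were added after seeing the data. Promoters are from RefSeq (GRCh38.p14), matched by symbol.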

Additional observations from a re-analysis of the deposited data

How the results depend on the processing

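The log2 fold change of HSPA8 ranged from -0.70 to -0.60 over 15 alternatives and that of HSPA4L from -0.16 to -0.04, given without a test. Over 48 single genes, 625 of 716 alternative values kept direction and side of the threshold, 71 lost and 6 gained the call, and 14 changed sign. The genes called numbered 2648 to 3424 with 1 library left out (4192 with all, lowest without ZNF706 knockdown replicate 2), the lower ones 1500 to 1939 (2286 with all) and the higher ones 1148 to 1485 (1906 with all). With library size alone, 1518 genes were lower and 2742 higher. By the study's thresholds, 1081 genes were lower and 1767 higher, 4 members were called, and 4 partner genes were lower and 1 higher. Without a filter, 1253 genes and 2 partner genes were higher. Of the heat shock genes, 6 rose with library size alone and 5 with limma. The rises among partners numbered 4 with the GC trend removed, 3 with the length trend removed and 1 to 8 with 1 library left out, for which the cause was not tested. Members called numbered 6 to 7 with 1 library left out, where 2648 to 3424 genes were called in all.

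HSPA4 changed sign to 0.0456 with library size alone, 0.041 with limma, 0.039 with GC and 0.0174 with length modelled, and ran from -0.0401 to 0.0323 with 1 library left out (0.0016 without ZNF706 knockdown replicate 3). HSF1 went to -0.0889 with GC modelled and ran from -0.0437 to 0.0393 with 1 library left out (-0.0157 and -0.0008 without ZNF706 knockdown replicates 1 and 3). NACA went to 0.0459 with library size alone, 0.0405 with limma and 0.0402 with length modelled, and BTF3 to -0.0085 with length modelled.

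Over 14125 genes as a whole, samples with the same replicate number did not deviate together (correlations of 0.026, -0.034 and 0.023). Single genes could differ from this. CPM of HSPA8, HSPA1A, HSPA1B and BAG3 rose from replicate 1 to replicate 3 in both groups. That of HSPA4L and HSPA9 rose in control and fell in knockdown samples. The adjusted p of BAG2 by edgeR was 0.0384 without and 0.0104 with the replicate number as a block. With the replicate number as a block, 4361 genes were called (2394 lower, 1967 higher), HSPA8 had a log2 fold change of -0.65, 6 members were counted as called, and DNAJC7 and DNAJC19 lost their calls. At this depth HSPA2, with 308 to 401 counts per library, and SNORD14E, with 14 to 46, had the widest intervals of the members and host-gene RNAs.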
